A study of Homo sapiens with 8 samples.

Results

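Agrin, the product of AGRN, is a large heparan sulfate proteoglycan of basement membranes. The form released by motor neurons binds the receptor LRP4 and activates the kinase MuSK, which clusters acetylcholine receptors at the neuromuscular junction. Forms made by other cells link laminins in the matrix to dystroglycan and integrins at the cell surface, and in liver cancer cells agrin has been tied to integrin and YAP signalling. In melanoma cells treated with control siRNA or with siRNA against DDX3X, 1 AGRN isoform was followed here among 65514 isoforms with values. This isoform is uc001ack.2 in the UCSC known gene series. It was picked by its identifier, from a description naming it as an isoform that was higher after DDX3X knockdown. The siRNA contrasts therefore chose it, and they are described below without a test.

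The cells were HT-144, an established human melanoma line, treated with a control siRNA or with siRNA against DDX3X, a DEAD-box RNA helicase that acts in translation initiation. From each treatment, RNA was taken either as total RNA or as polysomal RNA, the messages carrying several ribosomes that sediment deep in a sucrose gradient. The 4 groups (control siRNA total RNA, control siRNA polysomal RNA, DDX3X siRNA total RNA and DDX3X siRNA polysomal RNA) had 2 libraries each. All come from a single cell line. The labels used here give neither siRNA sequences nor doses or times, and do not say whether both libraries of a group came from separate cultures. The p-values therefore rest on a spread that could be purely technical. The deposited table lists UCSC identifiers without gene names, so the depletion of DDX3X, markers of melanoma cells and the partners of agrin were not analysed here.

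AGRN lies on the plus strand of chromosome 1, from 1020123 to 1056118 in GRCh38 (GENCODE release 29), and is annotated as protein coding. GENCODE lists 10 transcripts for it, of which 4 are protein coding and 6 are retained introns. Only 2 transcripts run the length of the gene: AGRN-201, with 36 exons and 7323 nucleotides, and AGRN-210, with 39 exons and 7394 nucleotides. A further gene, the sense intronic RNA AL645608.5, overlaps the 3′ end on the same strand. Cufflinks, the authors' tool, shares reads between overlapping transcripts by a model, so the value of one AGRN isoform depends on how reads were divided among the others. Which GENCODE transcript corresponds to uc001ack.2 was not established here.

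Values are in FPKM, a measure that scales fragment numbers to transcript length and to library size. How library size was set for these values is not given in the sources used here. FPKM keeps no read count, so the depth behind each value is unknown and no counting interval can be given. In total RNA with control siRNA the AGRN isoform stood at 11.9 FPKM in replicate 1 and 11.8 FPKM in replicate 2. In polysomal RNA with control siRNA it stood at 17.0 and 19.1 FPKM. With DDX3X siRNA it stood at 20.1 and 23.1 FPKM in total RNA. The highest values, 49.8 and 35.6 FPKM, came from polysomal RNA with DDX3X siRNA. The 4 groups did not overlap: both control total libraries lay lowest, and both DDX3X polysomal libraries lay above all others. The neighbours in the middle of this order were close. The step from the higher control polysomal to the lower DDX3X total library was smaller than the difference between the libraries inside either group. These groups were not compared in a test. In bulk RNA, fewer cells making a transcript and less transcript per cell cannot be told apart.

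As group means, AGRN was at 11.8 ± 0.0897 FPKM in control total RNA, 18.1 ± 1.52 in control polysomal RNA, 21.6 ± 2.14 in DDX3X total RNA and 42.7 ± 10.1 in DDX3X polysomal RNA (SD, n = 2 each). It was a fairly abundant isoform in these cells. Among the 15531 isoforms tested (1 FPKM or more in 2 or more libraries), it was above 77.1% to 78.0% of isoforms in control total RNA. It was above 81.1% to 83.5% in control polysomal RNA, 85.5% to 86.7% in DDX3X total RNA and 89.6% to 93.0% in DDX3X polysomal RNA. Ranks inside a library do not move with a common scale factor, and they gave the same order of groups.

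**Figure D1:**
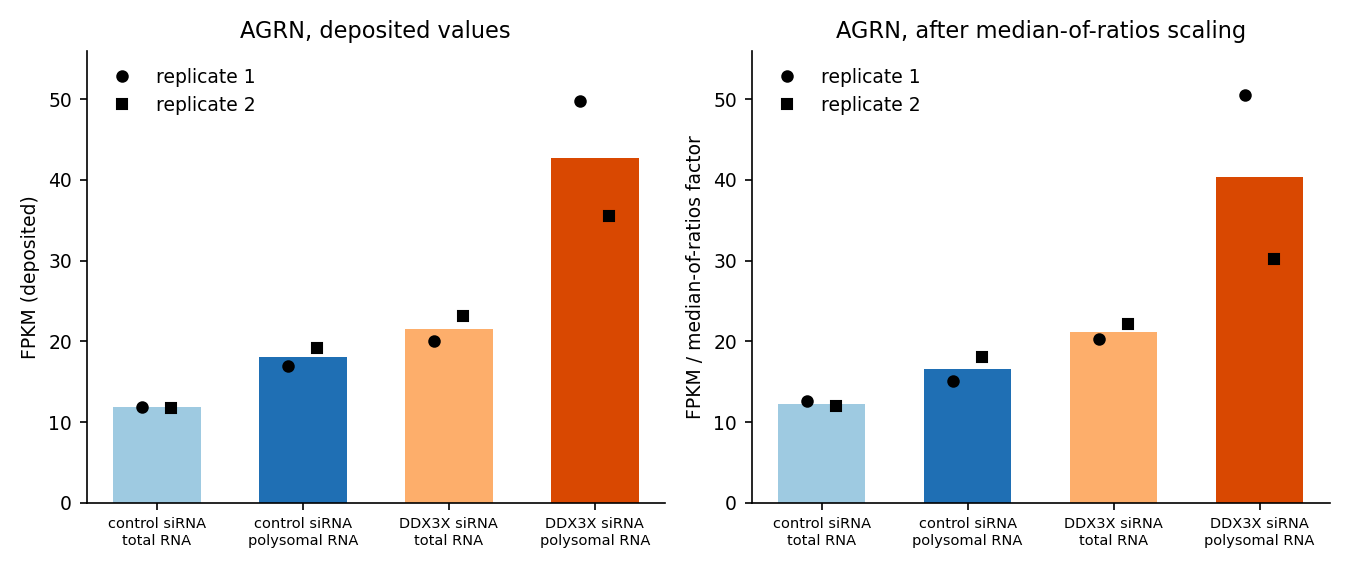
AGRN isoform uc001ack.2 in each library, as deposited FPKM (left) and as FPKM divided by a median-of-ratios factor (right); bars are means of 2 libraries and points are replicates 1 and 2. On both scales the control total libraries are lowest and the DDX3X polysomal libraries highest, with no overlap between the 4 groups.

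The DDX3X polysomal pair was the least even. Its libraries differed 1.40-fold in AGRN, against 1.01-fold in control total, 1.13-fold in control polysomal and 1.15-fold in DDX3X total RNA. On the log2(FPKM + 1) scale the gap in this pair was 0.47, and 13.6% of 6427 abundant isoforms (those never at 0 and averaging 5 FPKM or more) had a wider one. The median gap of these isoforms was also widest in this pair, at 0.25, against 0.11 to 0.14 in the other pairs. In control total RNA the AGRN gap was 0.01, and 93.1% of abundant isoforms had a wider one. The size of any AGRN difference that involves DDX3X polysomal RNA is thus known less well than the others.

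The fraction comparison asked whether the AGRN isoform had a higher FPKM in polysomal than in total RNA. FPKM is relative to the rest of its library, so this compares relative levels and not amounts of message. Averaged over both siRNAs the isoform was higher in polysomal RNA, 1.74-fold by the ratios of means. The ratio was 1.53 under control and 1.98 under DDX3X siRNA. Single polysomal libraries lay 1.43 to 1.62 times above single total libraries with control siRNA, and 1.54 to 2.48 times with DDX3X siRNA. All 4 polysomal libraries therefore lay above both total libraries of the same siRNA. The same separation with both siRNAs was found for 25.5% of tested isoforms, so it is a common pattern.

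On the log2(FPKM + 1) scale, polysomal RNA was higher than total RNA by 0.75 ± 0.12 (SE) averaged over both siRNAs, with a 95% interval of 0.46 to 1.04 (limma adjusted p = 0.0046). This average is balanced over the siRNAs, so the change that chose the isoform does not enter it. The comparisons within a single siRNA, and the difference between them, draw on values that also entered that change, so their p-values are not independent of the choice and support nothing by themselves. In the same comparison 21.5% of the tested isoforms were called higher in polysomal RNA. An exact permutation test within each siRNA (two-sided) gave p = 0.0556, the smallest value that its 36 arrangements allow. With DDX3X siRNA alone the difference was 0.94 ± 0.17 (95% interval 0.53 to 1.34, limma adjusted p = 0.0127), in a comparison where 12.4% of isoforms were called higher. With control siRNA alone it was 0.57 ± 0.17 (95% interval 0.16 to 0.97). It did not pass after adjustment (limma adjusted p = 0.0665), where 12.7% of isoforms were called higher. The spread was pooled over all 4 groups, so both siRNAs have the same SE. In fits of only the 4 libraries compared, the SE was 0.0956 with control and 0.2 with DDX3X siRNA.

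These calls rest on few libraries. Where 1 library of a group is left out, the other is assumed to vary like the remaining groups. Without DDX3X total replicate 1 or 2 the DDX3X siRNA difference was 0.84 or 1.03 and no longer passed (limma adjusted p = 0.0821 and 0.0501; 0.00667 to 0.0821 over 18 alternatives). Without DDX3X polysomal replicate 1 or 2 the control siRNA difference, itself the same by construction, passed (limma adjusted p = 0.0207 and 0.0203; 0.0203 to 0.270 over 18 alternatives). The average over both siRNAs passed in all 17 alternatives of the same kind.

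The median of all isoforms depended on the scaling. On the deposited values the median isoform was 0.12 higher in polysomal than in total RNA with control siRNA and 0.07 higher with DDX3X siRNA, and among abundant isoforms 0.24 and 0.19 higher. AGRN stood 0.45 above the median of all tested isoforms with control siRNA and 0.87 above it with DDX3X siRNA. Of the abundant isoforms, 23.9% had a larger difference than AGRN with control siRNA and 7.30% with DDX3X siRNA. After median-of-ratios scaling, which sets these medians near 0, AGRN was 0.40 higher in polysomal RNA with control siRNA and 0.85 higher with DDX3X siRNA. With values divided by library sums that leave out isoforms over 10000 FPKM, the medians turned to -0.12 and -0.09, and AGRN was 0.26 and 0.73 higher in polysomal RNA, or 0.38 and 0.82 above them.

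**Figure D2:**
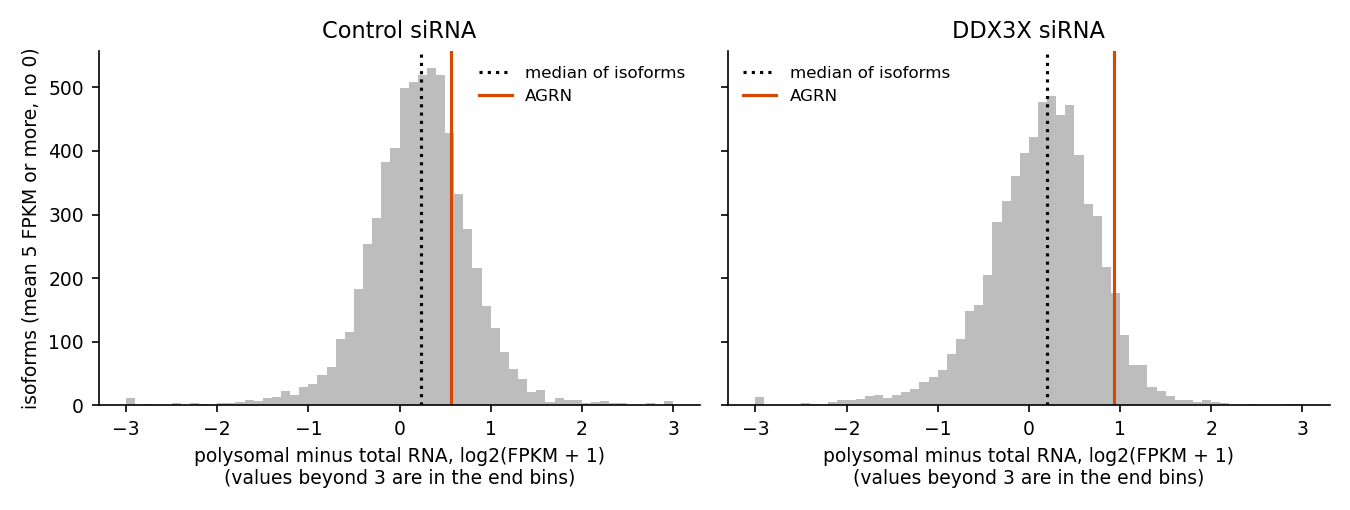
Polysomal minus total RNA on the log2(FPKM + 1) scale for 6427 abundant isoforms, with control siRNA (left) and DDX3X siRNA (right); bars count isoforms, the dotted line is their median and the coloured line is AGRN. AGRN lies at 0.57 inside the upper shoulder with control siRNA and at 0.94 further out with DDX3X siRNA.

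Whether polysome association itself differed between the siRNAs was examined as the difference between the 2 fraction differences. This equals the siRNA difference in polysomal RNA minus that in total RNA, and both chose the isoform. Its p-value is therefore not independent of that choice and supports nothing by itself. For AGRN the fraction difference was 0.37 ± 0.24 (SE) higher with DDX3X siRNA, with a 95% interval of -0.21 to 0.94. The difference between siRNAs did not pass (limma adjusted p = 0.835). As a ratio of ratios, the interval runs from 0.866 to 1.92. In this comparison 0.116% of tested isoforms were called, 5 higher and 13 lower. Among abundant isoforms 5.94% had a larger difference than AGRN, a share from which nothing is read. The estimate was 0.13 without DDX3X polysomal replicate 1 and 0.60 without replicate 2, so it moved with which library of the uneven pair was kept.

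With DDX3X siRNA the AGRN isoform was higher in both fractions, which is what its description says and what chose it. In polysomal RNA the ratio of means was 2.36, and single DDX3X libraries lay 1.86 to 2.93 times above single control libraries. In total RNA the ratio of means was 1.82, with single libraries 1.69 to 1.96 times apart. The log2 difference was 1.18 ± 0.17 (SE) in polysomal and 0.81 ± 0.17 in total RNA. These fractions share no library, but whether they came from the same cultures was not established here. In both fractions the 2 DDX3X libraries lay above the 2 control libraries, as they did for 12% of tested isoforms, a share given only as background.

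In polysomal RNA 34 of 6427 abundant isoforms had a larger positive difference than AGRN, or 0.529%, and in total RNA 180 did, or 2.80%. In both fractions 15 exceeded AGRN. The 90% of abundant isoforms in the middle of the range lay between -0.61 and 0.56 in polysomal RNA and between -0.52 and 0.64 in total RNA. AGRN was outside both ranges. Since these contrasts chose the isoform, nothing is read from its ranks or from its place outside the ranges. The differences in the 2 fractions were compared above as the difference between siRNAs. That comparison did not pass, and its p-value is not independent of the choice of the isoform.

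**Figure D3:**
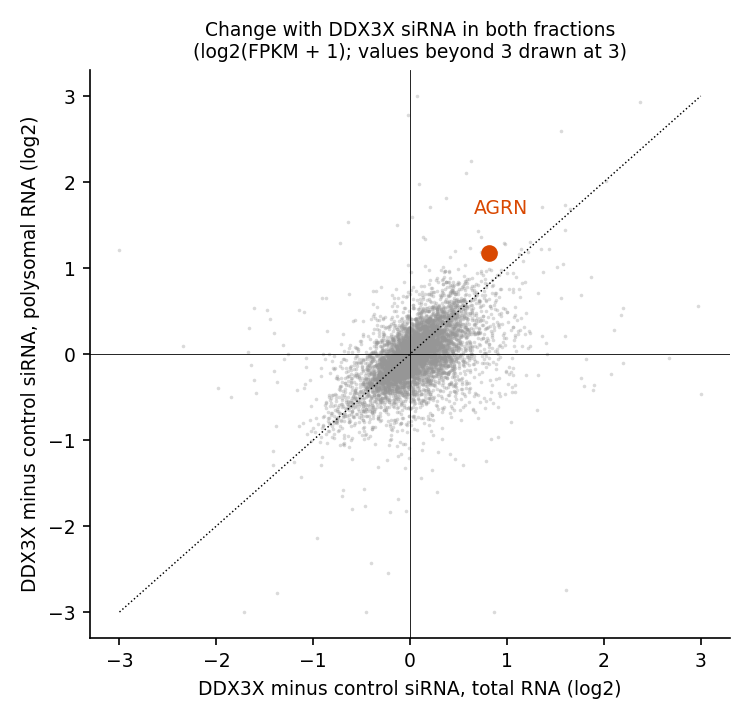
Difference between DDX3X and control siRNA in total RNA (horizontal) and polysomal RNA (vertical) on the log2(FPKM + 1) scale for 6427 abundant isoforms; the dotted line marks equal differences. AGRN, at 0.81 and 1.18, lies at the upper right edge of the cloud and above the line.

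The scale of the libraries matters for these values. The FPKM of a library summed to between 654252 and 5486857, and 25 isoforms that exceeded 10000 FPKM in some library made up 38.5% to 93.3% of the sums. Dividing by the sums, as TPM does, turned the AGRN difference in polysomal RNA to -0.99, while the median of all tested isoforms moved to -1.79. AGRN was then still 0.80 above that median. With sums taken without these 25 isoforms the difference was 1.27, against a median of 0.05, and the fraction difference with control siRNA was 0.26. Median-of-ratios factors, which do not depend on single isoforms, ran only from 0.949 to 1.18. With them AGRN stood at 12.5 and 11.9 in control total, 15.1 and 18.1 in control polysomal, 20.3 and 22.1 in DDX3X total and 50.5 and 30.1 in DDX3X polysomal RNA (scaled FPKM, replicates 1 and 2). The order of the groups was that of the deposited values.

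**Figure D4:**
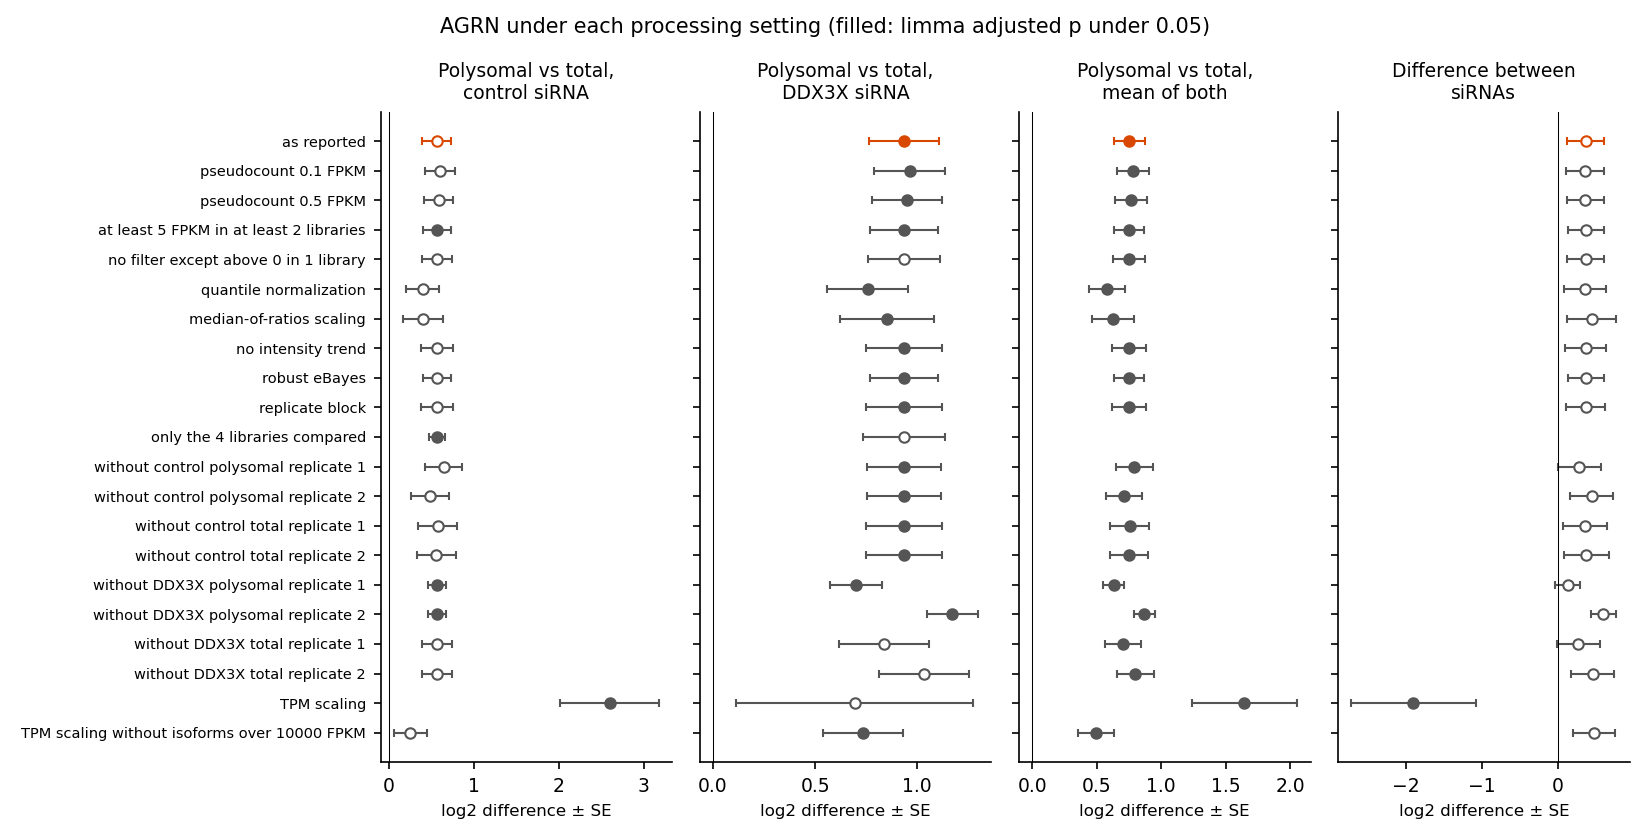
AGRN estimates (log2 difference ± SE) under each processing setting, for polysomal against total RNA with each siRNA and on average, and for the difference between siRNAs; filled points have a limma adjusted p under 0.05. TPM scaling with all isoforms in the sums moves the difference between siRNAs to -1.90, against a median of -1.96 over all tested isoforms. Under all other settings drawn the estimates keep their sign.

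The order control total, control polysomal, DDX3X total, DDX3X polysomal, with no overlap, was shared by 111 tested isoforms (0.715%, AGRN included), of which 70 were abundant. Since the siRNA contrasts chose AGRN, nothing is read from that share. Over the 8 libraries, 73 of 6426 other abundant isoforms (1.14%) had a Pearson r of at least 0.95 with AGRN on the log2(FPKM + 1) scale, and 207 (3.22%) had at least 0.9. These correlations describe libraries that fall into the same 4 groups, and all isoforms of a library share its scale.

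The isoforms with the highest r were uc001skm.4 (r = 0.996 over 8 libraries) and uc004clu.3 (r = 0.995), whose genes the deposited table does not name. The isoform uc001skm.4 stood at 9.13 and 9.14 FPKM in control total, 11.3 and 11.4 in control polysomal, 12.2 and 13.7 in DDX3X total and 20.5 and 17.8 in DDX3X polysomal RNA. It had the AGRN pattern at a smaller size, with log2 differences between siRNAs of 0.70 in polysomal and 0.46 in total RNA. The isoform uc004clu.3 stood at 9.55 and 9.69 FPKM in control total, 11.9 and 12.6 in control polysomal, 14.0 and 15.6 in DDX3X total and 29.6 and 23.2 in DDX3X polysomal RNA. Its log2 differences between siRNAs were 1.04 in polysomal and 0.57 in total RNA, nearer to those of AGRN. In both, as in AGRN, DDX3X polysomal replicate 1 was above replicate 2, so the gap inside that pair enters r. By distance between mean-centred values, which counts size as well as shape, uc004clu.3 ranked 3 and uc001skm.4 ranked 66 of 6426.

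**Figure D5:**
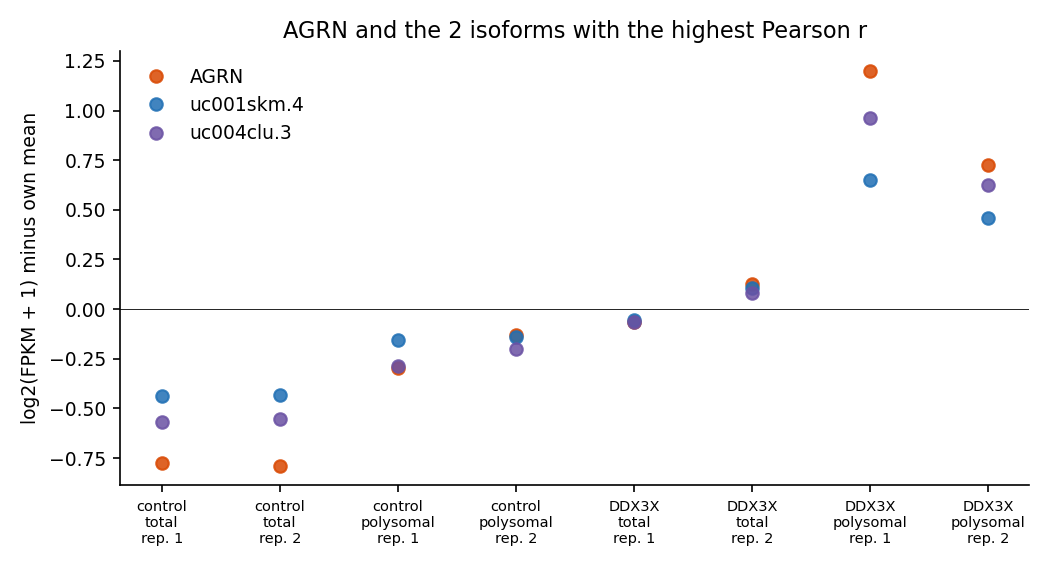
Log2(FPKM + 1) minus each isoform's own mean over the 8 libraries, for AGRN and the 2 abundant isoforms with the highest Pearson r (0.996 and 0.995). The 3 isoforms share the order of the 4 groups, though not that of the control total replicates, and AGRN has the widest range.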

How the data were processed

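Total and polysomal RNA of HT-144 cells gave paired reads of 75 bp, per the labels' protocols. TopHat2, Cufflinks 2.2.1 and the hg38 build are named in the submitters' processing notes; what annotation and settings went with them is not given in the sources used here. Values were deposited by the authors as FPKM for 65535 isoform rows and 8 libraries, per the file headers and values. Whether these rows hold all isoforms that were quantified was not established here, so shares of isoforms refer to the deposited rows. Here 21 rows that held another field were left out, and 5 decimal commas were read as points.

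Isoforms reaching 1 FPKM in 2 or more libraries were fitted as log2(FPKM + 1) with limma 3.58.1 (R 4.3.3), using a cell-means model over 4 groups and trended eBayes (residual degrees of freedom 4, prior 2.65). Benjamini-Hochberg adjustment ran over all 15531 isoforms, with a threshold of 0.05. Fold changes on this scale understate those of low isoforms. The code was tested on simulated data.

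The named isoforms were AGRN and the 2 with the highest Pearson r to it among isoforms never at 0 and averaging 5 FPKM or more. The isoform, lists and tests were chosen with earlier results of these data known. Of 65514 identifiers, 1 matched the reference gene tables and it was not AGRN, so the gene name comes from the description of the isoform; the lists of agrin partners and cell type markers could not be applied. Alternatives covered pseudocount, filter, scaling, variance model, replicate block and left-out libraries. Figures were made in Python 3.11.15 with matplotlib 3.10.9.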

Additional observations from a re-analysis of the deposited data

How the results depend on the processing

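In the alternatives not added after values had been seen, every AGRN difference kept its sign. The fraction difference passed in 4 of 18 with control siRNA (0.40 to 0.65), in 14 of 18 with DDX3X siRNA (0.70 to 1.17) and in 17 of 17 on average (0.58 to 0.87). The difference between siRNAs passed in 0 of 17 (limma; 0.13 to 0.60, adjusted p 0.239 to 0.997; unadjusted p = 0.172 as reported). With control siRNA the 0.57 passed at 5 FPKM or more (limma adjusted p = 0.0414) and in a fit of the 4 libraries compared (0.0371). With DDX3X siRNA the 0.94 did not pass with no filter (limma adjusted p = 0.0704) or in a fit of its 4 libraries (0.0595). Leaving out single libraries gave 0.49 to 0.65 with control and 0.70 to 1.17 with DDX3X siRNA. The cause of these changes of call was not tested.

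TPM scaling, added later, gave fraction differences of 2.60 with control siRNA (passing) and 0.69 with DDX3X siRNA (not passing). The difference between siRNAs was then -1.90 (passing). The median of all tested isoforms was -1.96 in that comparison, and 46.1% of them lay above AGRN. The siRNA differences were -0.99 in polysomal and 0.91 in total RNA.

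With the replicate number as a block, limma adjusted p-values were 0.0983 (control siRNA, 0.57), 0.0254 (DDX3X siRNA, 0.94), 0.0102 (average, 0.75) and 0.870 (difference between siRNAs, 0.37), and no call changed. Same-numbered libraries deviated with correlations of -0.119 to 0.104. With the DDX3X polysomal numbers crossed, also added later, these comparisons called 2238, 2485, 4616 and 12 isoforms, against 2622, 2935, 4989 and 18 with no block.

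Those counts moved by over 1.5 times with no filter (1668, 1785 and 219, all but the average), without compared libraries (911 to 1311 with control siRNA; 1129 and 1188 without DDX3X total replicates 1 and 2), in the fit of 4 DDX3X libraries (1329) and with TPM (13700, 238, 9079 and 12582). Median-of-ratios scaling called 1536 higher and 1479 lower with control siRNA, against 1976 and 646 as deposited, and 1833 and 1719 with DDX3X siRNA, against 1929 and 1006. Sums without isoforms over 10000 FPKM gave 955 and 1960, and 1321 and 2024. Of the 2 isoforms most like AGRN, 0 stayed in the top 2 by rho, distance or that scaling.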
